A study of Saccharomyces cerevisiae BY4741 with 2 samples.

Results

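The genes described here are 7 enzyme genes of arginine and histidine synthesis in the budding yeast Saccharomyces cerevisiae: HIS4, HIS5 and HIS6 for histidine and ARG1, ARG2, ARG3 and ARG4 for arginine. They were taken by name, and each stands on 1 row of the deposited tables, which hold 3146 rows and 2809 distinct gene names. They were chosen by their pathway and by the FPKM values of these same tables, with the ratio between the strains in view, so the values are given as a description and no test was made on them. RNA of a wild-type reference strain was compared with RNA of a strain lacking DBP2, the gene of a DEAD-box RNA helicase, by strand-specific sequencing of total RNA after removal of ribosomal RNA. Cultures were harvested in mid-log phase from rich medium with 2% glucose at 30 °C.

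Both strains (the deletion strain is written dbp2Δ with its values) are of mating type MATa and carry deletions of his3, leu2 and ura3, written his3Δ1, leu2Δ0 and ura3Δ0 for wild type and his3Δ0, leu2Δ0 and ura3Δ0 for the deletion strain. The wild type also carries met15Δ0. The deletion strain carries dbp2::KanMx and is further labelled TRP1, met- and lysΔ. Both strains thus lack HIS3, itself a histidine synthesis gene, and depend on histidine from the medium. The genotype labels differ in more than DBP2, and what part DBP2 and the other markers have in a difference cannot be told apart.

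Yeast makes arginine from glutamate by way of ornithine and citrulline, and histidine from phosphoribosyl pyrophosphate and ATP. Both pathways are classic targets of general amino acid control, in which starvation for an amino acid raises translation of the activator Gcn4, which binds the sequence TGACTCA upstream of synthesis genes. Arginine genes are in addition repressed when arginine is present, through a complex of Arg80, Arg81, Arg82 and Mcm1, and histidine genes respond to Bas1, the activator of purine synthesis.

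The sequences upstream of the genes are shown first, because a shared Gcn4 motif is the known link between the 2 pathways and can be read independently of the RNA values. Positions are 1-based on the RefSeq assembly R64, the assembly behind the build name sacCer3 that the submitters' processing notes give. One match is shown per gene with 12 bases on each side of the first 6 letters, the 7-letter motif TGACTCA where the gene has one and otherwise the 6-letter core TGACTC. Each is written 5′ to 3′ on the strand that reads TGACTC, with the motif in capitals.
HIS4, chrIII:68515-68544 (minus strand): acccatgcacagTGACTCAcgtttttttat
HIS5, chrIX:142714-142743 (plus strand): tcttggatctgtTGACTCActtcaattgat
HIS6, chrIX:314897-314926 (plus strand): aattattccgtaTGACTCtgcacactagac
ARG1, chrXV:218854-218883 (plus strand): gtgattttttagTGACTCAtgtcgcatttg
ARG2, chrX:306030-306059 (minus strand): cgaacgtgcttaTGACTCcatgggaagatc
ARG3, chrX:268473-268502 (plus strand): agggtcacgtcgTGACTCAtatgctttctt
ARG4, chrVIII:141564-141593 (minus strand): ttagtagatgaaTGACTCActttttggata

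Both strands were searched over the 500 bases before each start codon. All 7 genes held TGACTC there, at 13 sites, while 12.6% of the 6019 protein-coding genes searched in the same way held it. The longer TGACTCA overlaps the core, is counted among those sites and was present once each in 5 genes (HIS4, HIS5, ARG1, ARG3 and ARG4) and in 3.99% of all genes. Its first base lay between 179 and 345 bases before the start codon in these genes. HIS6 and ARG2 held the 6-letter form alone, once each, at 94 and 90 bases before the start codon. Of the 13 sites, 12 lay between genes, and the remaining one, upstream of ARG3, lay within the adjacent gene SIP4.

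**Figure D1:**
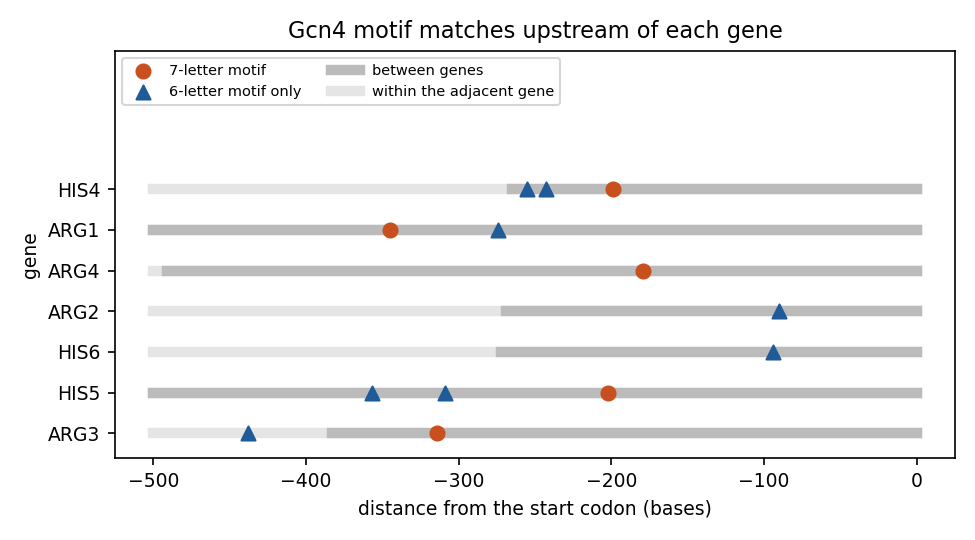
Positions of TGACTC (triangles) and of the longer TGACTCA (circles) before the start codon of each gene, in bases, with the space between genes in darker grey. HIS4 and HIS5 carry the longer motif at nearly the same distance, 199 and 202 bases before the start codon.

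Upstream windows of 3 genes are printed in full because they hold TGACTCA between 179 and 202 bases before the start codon. The choice also covers clearly lower RNA values in dbp2Δ (HIS4, ARG4) and, as deposited, similar values in both strains (HIS5). Each window runs from 250 bases before the start codon to 50 bases after it, 5′ to 3′ on the gene's strand, with TGACTC in capitals. HIS4 has 2 matches in this window and the others have 1 each.
HIS4, chrIII:68284-68583 (minus strand): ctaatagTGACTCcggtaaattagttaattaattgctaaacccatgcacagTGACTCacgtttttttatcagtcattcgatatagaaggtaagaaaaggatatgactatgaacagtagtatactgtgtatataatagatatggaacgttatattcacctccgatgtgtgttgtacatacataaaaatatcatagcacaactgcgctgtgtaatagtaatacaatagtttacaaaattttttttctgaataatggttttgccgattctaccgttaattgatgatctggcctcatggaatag
ARG4, chrVIII:141353-141652 (minus strand): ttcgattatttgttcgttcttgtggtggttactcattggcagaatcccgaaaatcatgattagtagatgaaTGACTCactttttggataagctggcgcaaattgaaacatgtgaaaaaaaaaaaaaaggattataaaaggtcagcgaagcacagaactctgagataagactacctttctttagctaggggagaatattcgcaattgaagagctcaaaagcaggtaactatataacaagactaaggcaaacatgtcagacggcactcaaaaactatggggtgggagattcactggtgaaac
HIS5, chrIX:142678-142977 (plus strand): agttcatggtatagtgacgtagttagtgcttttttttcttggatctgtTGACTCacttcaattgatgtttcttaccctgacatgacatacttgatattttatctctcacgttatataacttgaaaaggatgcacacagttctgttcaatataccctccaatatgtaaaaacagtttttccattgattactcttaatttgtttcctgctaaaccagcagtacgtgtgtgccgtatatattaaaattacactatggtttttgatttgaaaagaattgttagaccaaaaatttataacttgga

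In windows of this length TGACTC was found in 7.96% of the 6019 genes, in either orientation, and TGACTCA in 2.72%. The TATA-like sequence TATAAA was found in 45.4% of all windows and in 4 of the 7 genes (HIS5, ARG2, ARG3 and ARG4). In HIS5 that match lies after the start codon.

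Values are FPKM, fragments per kilobase of transcript scaled to library size, with 1 deposited value per strain. The labels list 2 replicates per strain, but no spread between them is given to set a difference against, and the differences below have no replicate check. Depth is unknown. Where a log2 ratio is given it is log2 of (dbp2 deletion + 1) / (wild type + 1), which understates the change of low genes, and a fold is the plain ratio of the 2 values. In bulk RNA a lower level in every cell and a low level in some of the cells cannot be told apart. DBP2 itself stood on 3 rows, of which the highest was 1539.7 FPKM in wild type against 2.52 FPKM in dbp2Δ. LEU2, deleted in both strains per the labels, was at 1.69 FPKM and 0.54 FPKM.

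HIS4, which encodes a single protein carrying out several steps of histidine synthesis including the last, had the highest level of the 7 genes in wild type and the largest difference. It lies on chromosome III at 65934 to 68333 on the minus strand (YCL030C). Its level was 810 FPKM in wild type against 103 FPKM in dbp2Δ, 7.86-fold lower. The log2 ratio of -2.96 was the 9th lowest of the 2211 genes compared across the tables, which include tRNA and small nucleolar RNA genes. HIS4 went from the 92.4th percentile of level in wild type to the 56.3rd in the deletion strain.

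The other histidine genes did not share this difference. HIS5, the histidinol-phosphate aminotransferase gene on chromosome IX at 142928 to 144085 (YIL116W, plus strand), was at 137 FPKM in wild type against 150.2 FPKM in dbp2Δ, 1.10-fold higher. HIS6, an isomerase gene of the middle of the pathway on chromosome IX at 314035 to 314820 (YIL020C, minus strand), was at 94.2 FPKM and 79.3 FPKM, 1.19-fold lower. HIS4 stood 5.93-fold above HIS5 in wild type and at 0.69 of HIS5 in the deletion strain. This comparison is made within each strain and per length, so it does not depend on how the libraries were scaled to each other. HIS1, HIS2, HIS3 and HIS7 were not analysed here.

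Arginine genes are given in pathway order. ARG2, which encodes acetylglutamate synthase at the entry to ornithine synthesis, lies on chromosome X at 306132 to 307856 (YJL071W, plus strand) and was at 54.0 FPKM in wild type against 38.0 FPKM in dbp2Δ, 1.42-fold lower. ARG3, the ornithine carbamoyltransferase gene that yields citrulline, lies on chromosome X at 268799 to 269815 (YJL088W, plus strand). It was the lowest of the 7 genes in both strains, at 7.60 FPKM and 16.3 FPKM, and the sole one higher in dbp2Δ by 2-fold or more, at 2.14-fold. Its log2 ratio of 1.01 sat just past the 2-fold limit and fell short of it with a pseudocount of 10, at 0.58.

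The last enzymes of the pathway were lower in the deletion strain. ARG1, the argininosuccinate synthetase gene on chromosome XV at 219211 to 220473 (YOL058W, plus strand), was at 148 FPKM in wild type against 32.3 FPKM in dbp2Δ, 4.58-fold lower and the 27th lowest log2 ratio of the 2211 genes. ARG4, the argininosuccinate lyase gene on chromosome VIII at 140011 to 141402 (YHR018C, minus strand), was at 325 FPKM and 104 FPKM, 3.14-fold lower and the 67th lowest. The 2 genes act in succession, and the level of ARG4 over ARG1 was 2.20 in wild type and 3.21 in the deletion strain. ARG1 over ARG3, the step before it, was 19.5 in wild type and 1.99 in the deletion strain.

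**Figure D2:**
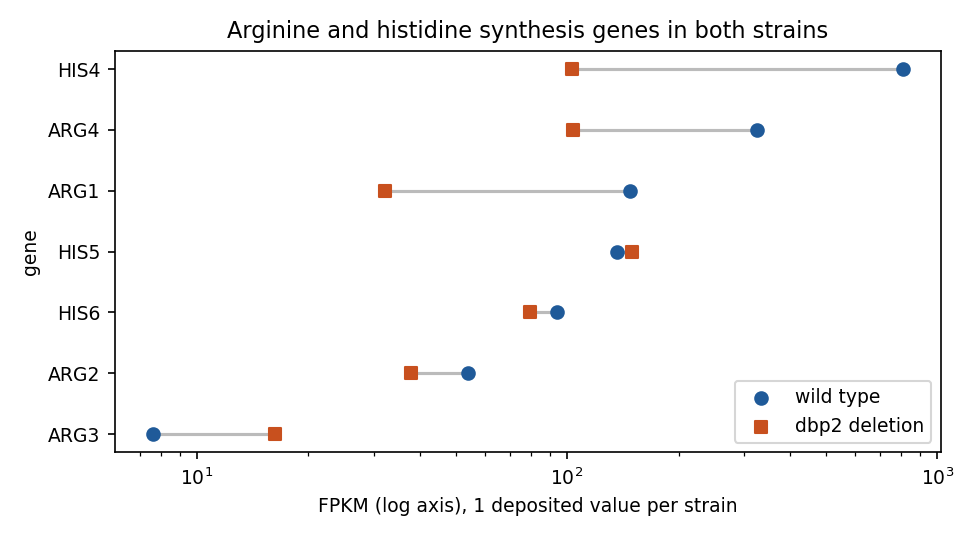
Level of each gene in wild type (circles) and in the dbp2 deletion strain (squares), in FPKM on a log axis, with 1 deposited value per strain and genes ordered by level in wild type. HIS4, ARG4 and ARG1 are shifted to lower values in the deletion strain, ARG3 to a higher one, and HIS5, HIS6 and ARG2 lie closer together.

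The spread among the 7 genes was narrower in the deletion strain. From the lowest to the highest, levels spanned 107-fold in wild type and 9.24-fold in the deletion strain, with ARG3 the lowest in both. HIS4 and ARG3 set the span in wild type, and the genes were chosen with their ratios in view. Among all genes compared, median log2 ratios were also lower at high levels, as given by group of level below. The order from the highest was HIS4, ARG4, ARG1, HIS5, HIS6, ARG2 and ARG3 in wild type. It was HIS5, ARG4, HIS4, HIS6, ARG2, ARG1 and ARG3 in the deletion strain, where ARG4 and HIS4 were nearly equal at 104 FPKM and 103 FPKM. HIS4 made up 51.4% of the summed level of the 7 genes in wild type and 19.7% in the deletion strain. With 1 value per strain no spread is known by which neighbours in these orders could be told apart.

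Of the 7 genes, 3 were lower in dbp2Δ by 2-fold or more and 1 was higher by that much. The 2211 genes compared hold 1986 protein-coding genes, with tRNA and small nucleolar RNA genes among the others. Over all 2211, 10.9% were lower by 2-fold or more and 8.86% were higher by that much. Since the genes were chosen with these values known, nothing is read from that difference. The median log2 ratio of the 7 was -0.50, beside -0.08 over all genes. All 7 passed the filter on low values used for the comparison (above 0 in both strains and a mean of at least 1 FPKM).

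The scaling between the strains moved the values of all genes together. When the summed FPKM of protein-coding genes was made equal between the strains (equal protein-coding sums below), the median log2 ratio of all genes rose by 0.46, to 0.38, and the shares past 2-fold became 4.57% on the lower and 19.9% on the higher side. HIS4, ARG1 and ARG4 stayed past 2-fold on the lower side, at 5.68-fold, 3.31-fold and 2.27-fold, and ARG3 was 2.96-fold higher. HIS5 went from 1.10-fold to 1.52-fold higher. HIS6 turned from 0.84 of wild type to 1.16-fold, and the median of the 7 genes became -0.04. Relative to the median of all genes, log2 ratios were -2.88 for HIS4, -2.08 for ARG1 and -1.56 for ARG4 as deposited. HIS6 and ARG2 lay at -0.17 and -0.42 on that relative scale, HIS5 at 0.21 and ARG3 at 1.08.

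**Figure D3:**
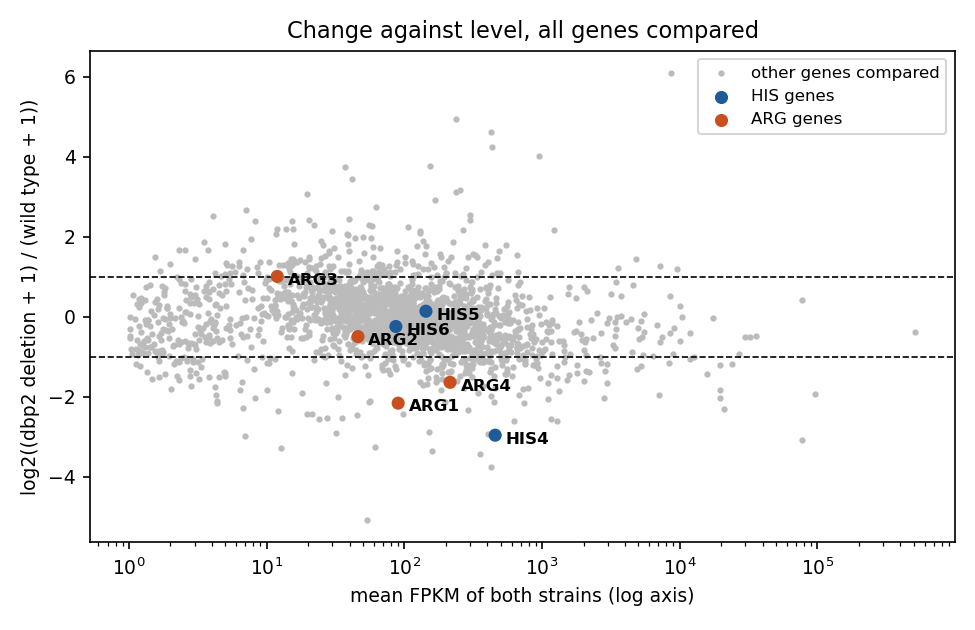
Log2 ratio of dbp2 deletion over wild type, with a pseudocount of 1, against the mean FPKM of both strains on a log axis, for the 2211 genes compared (grey) with the HIS and ARG genes labelled, and dashed lines at 2-fold. HIS4, ARG1 and ARG4 lie below the lower line at -2.96, -2.16 and -1.64, and ARG3 lies at the upper line.

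The share of lower genes varied with level, so the 7 genes were placed among others of like level. Ranked by mean FPKM and split into 5 groups of near-equal size, group 1 being the lowest, HIS4 fell in group 5, where 22.9% were at least 2-fold lower and the median log2 ratio was -0.48. ARG4 lay in group 4, where 10.4% were at least 2-fold lower, and ARG1 in group 3, where 4.07% were. ARG3 belonged to group 1, in which 14.0% of genes were higher by 2-fold or more and 12.9% were lower by that much. Median log2 ratios were 0.10 in group 1, 0.20 in group 2, 0.002 in group 3 and -0.25 in group 4. The part of level in these differences was not tested.

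The genes beside them on the chromosomes were read as a local comparison. Of 14 adjacent genes, 11 stood on 1 row, and all 11 lay within 2-fold, between -0.62 and 0.69 on the log2 scale. Most genes did so, 1774 of all 2211 compared, so nothing particular is read from the adjacent genes. HIS4 is flanked by RRP7, a ribosome biogenesis gene, at 315 FPKM in wild type against 336 FPKM in dbp2Δ, and by the microtubule-binding protein gene BIK1, which lies 265 bases upstream, at 36.2 FPKM and 58.8 FPKM. ARG4 lies between YSC83 at 141 FPKM and 113 FPKM and DED81, the asparaginyl-tRNA synthetase gene, at 1073 FPKM and 723 FPKM.

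ARG1 lies between GPD2, a glycerol-3-phosphate dehydrogenase gene higher on both of its rows (150.4 against 227 FPKM on the higher row, 27.6 against 37.7 FPKM on the lower), and YOL057W, at 191 FPKM and 124 FPKM. SIP4, upstream of ARG3, stood on 2 low rows that went opposite ways, at 1.01 against 4.94 FPKM and at 4.44 against 2.22 FPKM. TRL1, the tRNA ligase gene on the other side of ARG3, was at 101.4 FPKM and 66.2 FPKM.

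**Figure D4:**
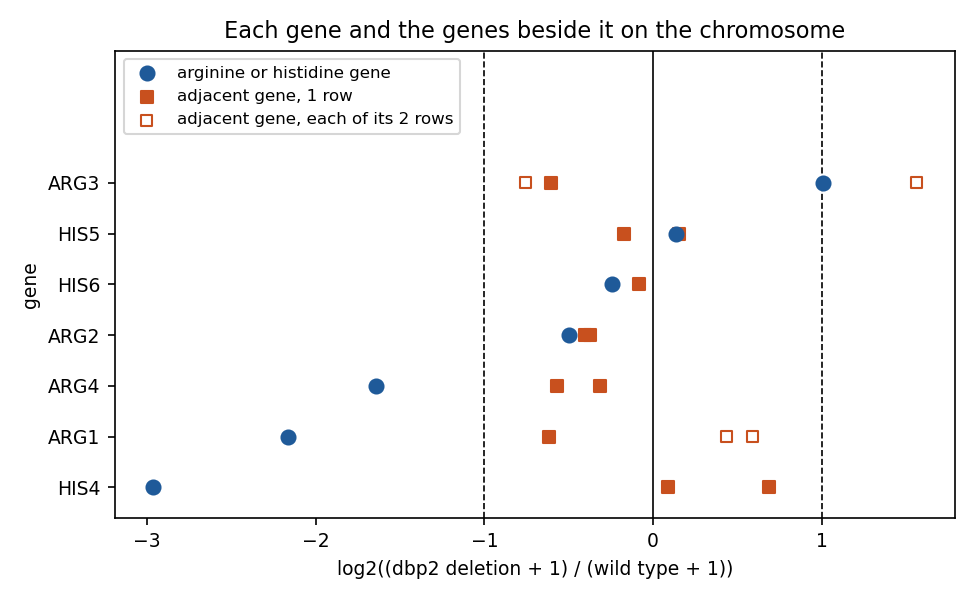
Log2 ratio of dbp2 deletion over wild type, with a pseudocount of 1, for each arginine or histidine gene (circles) and the genes adjacent to it (squares, open where the adjacent gene stands on 2 rows), with dashed lines at 2-fold. The filled squares all lie between -0.62 and 0.69, while HIS4, ARG1 and ARG4 lie below -1.

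The motif was set beside the values of the 7 genes. TGACTCA stands upstream of HIS4, ARG1 and ARG4, which were at least 2-fold lower, and also of HIS5, which was 1.10-fold higher, and ARG3, which was 2.14-fold higher. HIS6 and ARG2, which hold the 6-letter form alone, lay within 2-fold, at log2 ratios of -0.25 and -0.50. All 4 genes past 2-fold thus held TGACTCA, in both directions, and of the 3 within 2-fold HIS5 held it. With 7 genes chosen by their values this is a description. Across the tables, 85 of the 1986 protein-coding genes compared held TGACTCA in the 500 bases before the start codon. Without the 5 described here, 80 remained, of which 10 (12.5%) were lower by 2-fold or more and 7 higher by that much, with a median log2 ratio of -0.22. Among the 1901 protein-coding genes without the motif 8.94% were at least 2-fold lower, 8.73% were at least 2-fold higher and the median was -0.05. These shares are as deposited, and a link between motif and ratio was not tested. The RNA of GCN4 was not analysed here.

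Other genes of the same metabolism were read next. Of the 9 arginine synthesis genes listed, 5 were in the tables, 4 of them described above. The fifth, ARG8, an aminotransferase gene of ornithine synthesis, was at 240 FPKM in wild type against 192 FPKM in dbp2Δ, a lower value that turned to a higher one (log2 ratio 0.15) with equal protein-coding sums. The 5 genes together had a median log2 ratio of -0.50, with 2 past 2-fold on the lower side and 1 on the higher.

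Breakdown and regulation were measured through few genes. CAR1, the arginase gene that arginine induces, was at 706 FPKM in wild type against 204 FPKM in dbp2Δ, 3.47-fold lower. PUT2, which acts later in the route from arginine and proline to glutamate, was at 54.1 FPKM and 73.3 FPKM. ARG81, a zinc-finger subunit of the arginine repressor complex that also takes part in inducing CAR1, was at 36.6 FPKM and 90.1 FPKM, 2.46-fold higher. BAS1, the activator of purine and histidine genes, was at 73.2 FPKM and 94.1 FPKM, 1.28-fold higher.

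None of the 5 genes of general amino acid control signalling compared reached 2-fold, and neither did 1774 of all 2211 genes. GCN3, a subunit of the translation initiation factor eIF2B, was at 620.1 FPKM and 367 FPKM, and GCN20, which helps to activate the kinase Gcn2, at 795.5 FPKM and 562 FPKM. Of these 5 genes, 4 had lower values in the deletion strain as deposited, as had 1194 of all 2211 genes. SUI2 had a higher value there, at 170 FPKM in wild type against 234 FPKM in dbp2Δ. The median of the 5 was -0.50 as deposited, and -0.03 once protein-coding sums were equal. The 4 transport genes compared had higher values in the deletion strain, as had 1017 of all 2211 genes, and none reached 2-fold as deposited. The general amino acid permease gene GAP1 was at 42.0 FPKM and 59.3 FPKM, and the basic amino acid transporter genes LYP1 and ALP1 were at 305 against 533 FPKM and at 11.0 against 11.8 FPKM. LYP1 was 2-fold higher or more with equal protein-coding sums, at a log2 ratio of 1.27.

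Purine synthesis shares phosphoribosyl pyrophosphate with histidine synthesis. All 4 genes of that list compared had lower values in the deletion strain as deposited, as had 1194 of all 2211 genes. ADE1, ADE12 and PRS5 lay in group 5 of mean FPKM, where 324 of 442 genes had lower values. ADE12 was 2.49-fold lower and ADE1 2.06-fold lower, and the phosphoribosyl pyrophosphate synthetase genes PRS5 and PRS1 were 1.81-fold and 1.14-fold lower. With equal protein-coding sums PRS1 had a higher value (log2 ratio 0.28) and none of the 4 reached 2-fold.

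In the other amino acid pathways, lysine and methionine left out, 9 of 35 genes listed were compared. As deposited, 5 were past 2-fold on the lower side and 1 on the higher. With equal protein-coding sums those counts were 1 and 3. BAT2, HOM6, ILV3, SER33 and TRP3, the 5 lower ones as deposited, lay in group 5 of mean FPKM, as did LEU4, the higher one. In that group 22.9% of genes passed 2-fold on the lower side and 6.33% on the higher, and the median log2 ratio was -0.48. The part of level in the counts for these pathways was not tested. BAT2, the cytosolic branched-chain aminotransferase gene, was at 2071 FPKM in wild type against 571 FPKM in dbp2Δ and was at least 2-fold lower on both scales. TRP3, a tryptophan synthesis gene, was at 486 FPKM and 221 FPKM, and LEU4, which encodes the enzyme at the entry to leucine synthesis, at 284 FPKM and 582 FPKM. The median log2 ratio of these 9 was -1.02, and -0.55 with equal protein-coding sums.

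**Figure D5:**
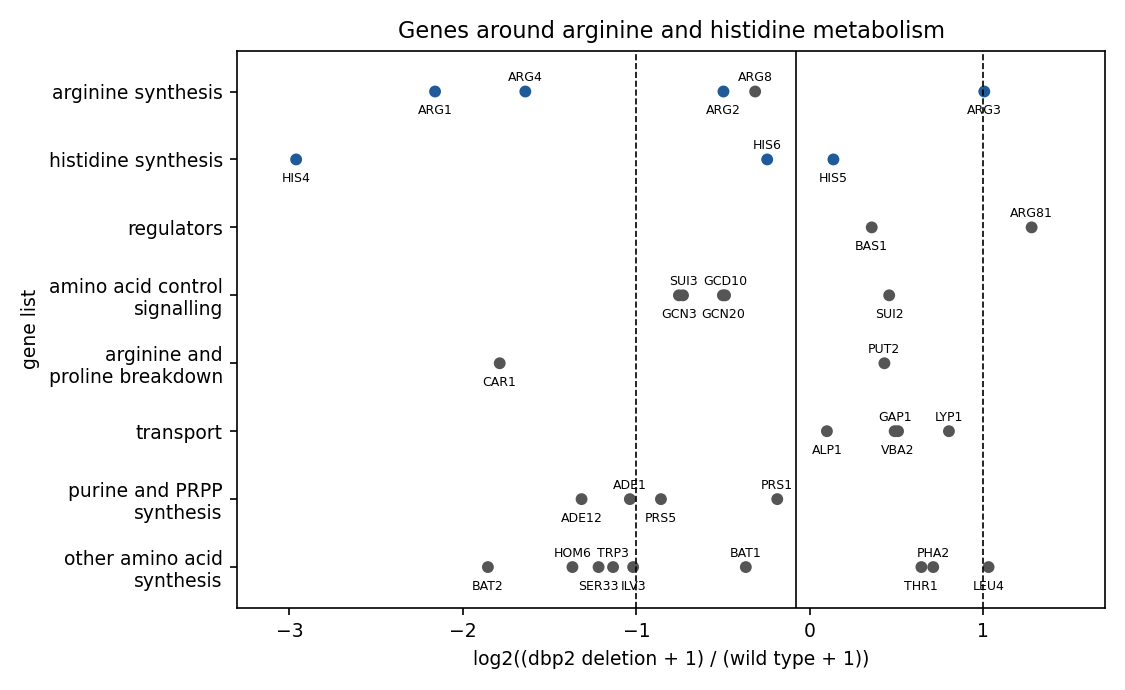
Log2 ratio of dbp2 deletion over wild type, with a pseudocount of 1, for each gene compared in 8 lists around arginine and histidine metabolism, with the 7 genes described here in blue, the median of all genes as a solid line and 2-fold as dashed lines. The arginine synthesis genes run from ARG1 at -2.16 to ARG3 at 1.01, while the 4 transport genes lie between 0.10 and 0.80.

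The gene whose pair of values was nearest to each of the 7 was found by distance over both log2 levels in the 2 samples. ENB1, a siderophore transporter gene, was nearest to HIS4, at 714 FPKM in wild type against 92.7 FPKM in dbp2Δ (distance 0.24). BAR1, a protease gene of a cells, was nearest to ARG1, at 141 FPKM and 32.2 FPKM (distance 0.07), and PTC7, a mitochondrial protein phosphatase gene, to ARG4, at 323 FPKM and 105 FPKM (distance 0.03). ATG29, an autophagy gene, was nearest to ARG3, at 8.30 FPKM and 16.3 FPKM. The second nearest were YJR015W for HIS4, the alanine tRNA gene tA(AGC)J for ARG1, GFD2 for ARG4 and PUG1 for ARG3. For the genes with smaller differences the nearest were GTR1 and IMP2' for HIS5, MRS1 and PIR1 for HIS6, and STB5 and IRR1 for ARG2, at distances of 0.03 to 0.07. With 2 samples such likeness is shared by any gene of the same level and ratio.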

How the data were processed

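The authors deposited 1 table per strain with a gene name and a value on each row, and the values were taken as FPKM because Cuffdiff 2.1.1 is named in the submitters' processing notes and the sums exceed what CPM or TPM allow. The notes name the build sacCer3. The aligner, the annotation, the use of strand, the scaling between libraries and how replicates were combined were not given in the sources used here. No read counts are given, so depth is unknown and no interval was computed.

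From these FPKM, names on several rows (306 names, 643 rows) and 7 rows naming several genes were left out, as were 203 genes listed at 0 in a strain, since a 0 can be a failed estimate, and genes with a mean under 1 FPKM. The remaining 2211 genes were compared with a pseudocount of 1 and a size limit of 2-fold, with no test. The procedure was run on simulated data with an assumed spread, which checks the computation and says nothing of the spread in these data. Genes named are the 7 described, listed pathway genes, adjacent genes, the nearest genes by level, DBP2 and LEU2. The genes and lists were chosen with earlier results of these data known. Of the listed genes, VBA3 (mean under 1 FPKM) and GDH3 (2 rows) were in the tables but not compared, and the synthetase genes HTS1 and YDR341C were not analysed here. A gene of the arginine list is not reported here. Motifs were searched in RefSeq R64. Python 3.11.15, numpy 2.4.6, pandas 2.3.3 and matplotlib 3.10.9 were used.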

Additional observations from a re-analysis of the deposited data

How the results depend on the processing

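In all, 8 alternatives were tried: 2 other pseudocounts, 2 other filters, 2 other scalings and 2 other treatments of repeated names. HIS4, ARG1 and ARG4 were at least 2-fold lower under all 8, with log2 ratios of -2.97 to -2.50, -2.19 to -1.70 and -1.65 to -1.18. The 2 filters and the 2 treatments of repeated names could not move the 7 genes, each on 1 row and above both filters. Only the pseudocounts and scalings could change their values. ARG3 ranged from 0.58 to 1.45, and the count of the 7 genes at least 2-fold higher went from 1 to 0 with a pseudocount of 10 and with equal medians, where ARG3 was at 1.00, just under the limit. With equal protein-coding sums, 101 of all genes were at least 2-fold lower and 441 higher in place of 241 and 196, the median of the 2 regulators moved from 0.82 to 1.28 and that of the other amino acid synthesis genes from -1.02 to -0.55. The count of all genes at least 2-fold higher was 111 with a pseudocount of 10 and 295 with every row counted on its own. No paired analysis was possible because each strain has 1 value, and for the same reason no replicate could be left out.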
